A study of Bos taurus with 24 samples.

Results

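The comparison set 8 bovine early blastocysts derived in vivo against 8 blastocysts cultured in medium with serum (serum embryos), 16 of the 24 embryos of the series, each sequenced singly. The in vivo embryos, 5 male and 3 female, were flushed on day 7 from 3 superovulated Holstein cows that had been inseminated with semen of a Holstein bull. The serum embryos, 3 male and 5 female, came from oocytes of slaughterhouse Holstein ovaries, matured with 20% foetal bovine serum. The oocytes were fertilized in vitro, per the study with semen of the same bull. The embryos were grown in synthetic oviduct fluid with 5% serum in 3 independent experiments to day 6 to 7. The remaining 8 embryos, 5 male and 3 female, were produced in vitro with no serum in maturation or culture, to day 6 to 7. They are given only beside the values of these groups. The labels do not give the donor cow, experiment or sequencing lane of an embryo. The sex ratio differed between the groups. Maturation, fertilization, donor animals, culture and, in part, day of collection differed together between the groups, so their effects cannot be told apart. The embryos are whole, so fewer cells of a type and less RNA per cell cannot be told apart either.

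A blastocyst consists of an outer epithelium, the trophectoderm, which seals and pumps fluid into the cavity and forms the placenta, and an inner cell mass, from which the epiblast and the hypoblast (primitive endoderm) arise. Trophectoderm cells carry keratin filaments, tight junctions and an apical membrane with microvilli, and in cattle they secrete interferon tau and pregnancy-associated glycoproteins. Culture with serum is known in cattle for its effect on embryo lipid content and on the development of the calves.

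Of the 24621 genes listed, 7339 reached 15 counts throughout the in vivo group, the serum group or both, and were tested with edgeR's quasi-likelihood test. Differentially expressed (DE) genes are those that differed at least 2-fold with a Benjamini-Hochberg adjusted p below 0.05. In all, 1011 genes (13.8%) were DE, 539 (7.34%) higher in vivo and 472 (6.43%) higher in serum, against which the gene groups below are read. For 522 genes (7.11%), DE or not, the normalized levels (CPM, counts scaled to the library total with TMM factors) of the 8 in vivo embryos did not overlap those of the 8 serum embryos. The median log2 fold change over all genes tested, in vivo over serum, was -0.01. Because a gene could enter through the group in which it was high, counts of called members describe each list and are no evidence of its direction. With at least 15 counts required in every embryo of both groups, 544 of 5743 genes were DE.

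Total counts ranged from 3622680 to 5743015 in vivo and from 3253051 to 9000447 in serum, and 3 counts, taken as the floor, corresponded to at most 0.922 CPM. Serum embryo 2 stood apart from its group. It had 28.0 CPM of POU5F1, the pluripotency factor of the inner cell mass, against at least 141 CPM in the other serum embryos, and the lowest correlation between serum embryos over the tested genes was 0.731, against 0.916 in vivo. Without it, 890 genes were DE, 804 of them among the 1011.

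Among DE genes with a symbol, a mean of at least 10 CPM and no overlap between the groups, the largest differences on the in vivo side included proteins of the epithelial surface. PRSS8 (prostasin), a membrane-anchored serine protease of epithelia that activates sodium channels, lay between 15.1 and 113 CPM (median 51.2) in vivo and between 0 and 0.896 CPM (median 0.146) in serum, with a log2 fold change of 7.71 ± 0.63 (SE) and an adjusted p of 5.47e-07. DPEP1, a membrane dipeptidase that cleaves glutathione breakdown products, lay between 6.94 and 179 CPM (median 44.1) and between 0 and 5.02 CPM (median 0.814), with a log2 fold change of 5.08 ± 0.78 and an adjusted p of 0.000246. SLC28A3, a concentrative nucleoside transporter, lay between 8.62 and 101 CPM (median 59.4) and between 0 and 4.30 CPM (median 1.46), with a log2 fold change of 5.04 ± 0.65 and an adjusted p of 6.29e-05. The groups did not overlap for any of these 3 genes, and in serum embryos their lowest value was 0. PRSS8 had at most 5 counts in any serum embryo, and its serum median lay under the floor. The size of its fold change is therefore poorly measured. HKDC1, a hexokinase-like enzyme, lay between 26.3 and 69.0 CPM (median 49.6) in vivo and between 0 and 7.53 CPM (median 0.423) in serum, with a log2 fold change of 5.02 ± 0.73 and an adjusted p of 0.000174. Without serum embryo 8 the log2 fold change of HKDC1 was 6.28 and that of PRSS8 8.40. SFN (14-3-3 sigma), an adaptor protein of epithelia that binds keratins, lay between 21.9 and 106 CPM (median 66.1) and between 0.237 and 14.9 CPM (median 4.66), with a log2 fold change of 3.35 ± 0.58 and an adjusted p of 0.000589. SH3YL1, CRIP1, FCGR2, TMEM62, DLX4, a homeobox factor of placenta, and FLRT3, a cell adhesion protein, completed, with PRSS8, DPEP1, SLC28A3 and HKDC1, the 10 genes with the largest excess in vivo, with log2 fold changes from 3.62 to 4.54 and no overlap between the groups.

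On the serum side, by the same rule, the largest difference was that of GSTM3, a glutathione transferase, which lay between 0 and 2.03 CPM (median 0.0876) in vivo and between 8.74 and 326 CPM (median 20.5) in serum, with a log2 fold change of -7.33 ± 1.01 and an adjusted p of 0.000122. Its highest serum value was that of serum embryo 2, and without this embryo its log2 fold change was -6.01, against -8.69 without in vivo embryo 4. SDS, serine dehydratase, which turns serine into pyruvate, lay between 0 and 6.49 CPM (median 2.92) in vivo and between 8.74 and 2376 CPM (median 64.2) in serum, with a log2 fold change of -7.10 ± 1.18 and an adjusted p of 0.000428, or -5.38 without serum embryo 2, which held the highest value. ZSCAN4, a factor of early embryonic genome activation and telomere maintenance, lay between 0.272 and 27.3 CPM (median 10.2) in vivo and between 36.9 and 523 CPM (median 242) in serum, with a log2 fold change of -4.57 ± 0.64 and an adjusted p of 0.000128. All 8 serum embryos were above all 8 in vivo embryos for these 3 genes. QPCT, which forms amino-terminal pyroglutamate on peptides, was at a median of 0 CPM in vivo and 25.9 CPM in serum. IL2RG, the common cytokine receptor chain, was at 3.22 and 77.4 CPM. MFSD2, CT55, SLC28A2, a second nucleoside transporter, ARRDC2 and SERPINA5, a serine protease inhibitor, completed the 10 genes, with log2 fold changes from -4.19 to -6.25. Leaving out serum embryo 2 moved MFSD2 to -5.35 and ARRDC2 to -3.42, and leaving out in vivo embryo 6 moved MFSD2 to -6.85. QPCT was at -7.34 without in vivo embryo 7, and SERPINA5 at -4.81 without in vivo embryo 4 and -3.51 without serum embryo 3. The in vivo medians of GSTM3, QPCT, MFSD2 and SERPINA5 lay under the floor, so the sizes of their fold changes are poorly measured.

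**Figure D1:**
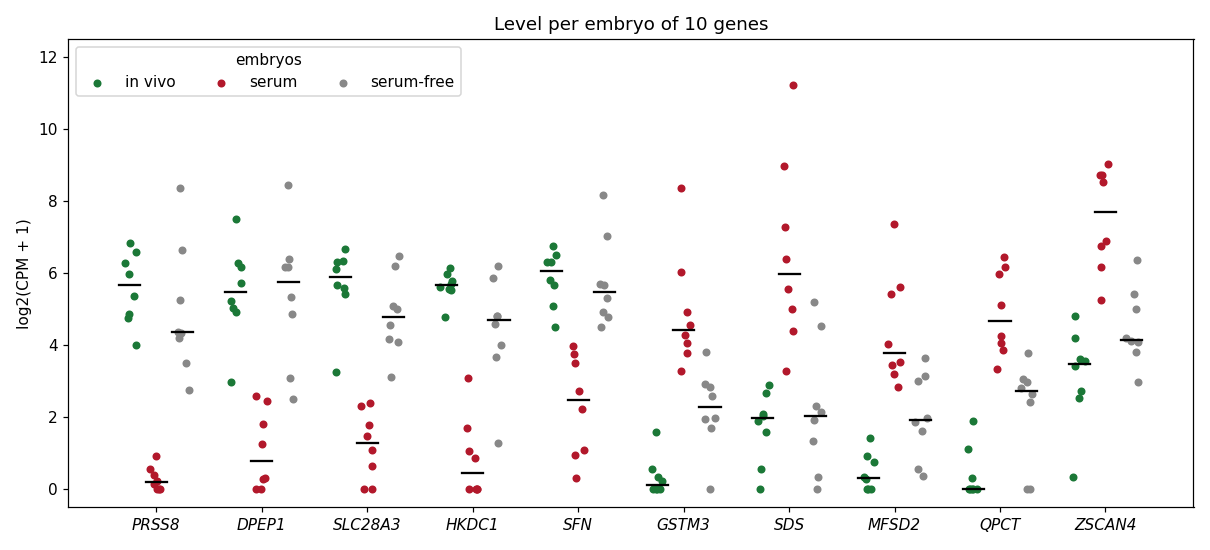
Level of 10 genes, as log2(CPM + 1), in each in vivo (green), serum (red) and serum-free (grey) embryo; 1 point is 1 embryo and black bars are medians. For PRSS8, DPEP1, SLC28A3, HKDC1 and SFN every in vivo embryo lies above every serum embryo, and for GSTM3, SDS, MFSD2, QPCT and ZSCAN4 every serum embryo lies above every in vivo embryo.

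The labelled stage was checked against lineage genes. The trophectoderm keratins KRT8, KRT18 and KRT19 and the inner cell mass factor POU5F1 had more than 3 counts in all 16 embryos, whereas the trophectoderm factor GATA3 fell to the floor of 3 counts in a serum embryo and the keratin KRT7 to 1 count. CDX2, a trophectoderm factor, had at most 11 counts in any of these embryos and SOX17, a hypoblast factor, had no count in any of the 16, while NANOG and GATA4 did not reach the limit for testing. NANOG lay between 1.68 and 26.6 CPM in vivo (median 12.2) and between 1.13 and 227 CPM in serum (median 27.9).

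Of 13 tested genes of the list of trophectoderm factors and keratins, 8 were higher in vivo and 1 was higher in serum, with a median log2 fold change of 1.66. With at least 15 counts required in every embryo of both groups, 3 genes of this list were called higher in vivo. KRT8, the main type II keratin of this epithelium, lay between 5896 and 11589.5 CPM (median 8634) in vivo and between 38.9 and 3982 CPM (median 733) in serum, with a log2 fold change of 3.05 ± 0.67 and an adjusted p of 0.00289, or 3.75 without serum embryo 8. Its partner KRT18 lay between 1012 and 2805 CPM (median 1801) and between 45.8 and 865 CPM (median 178), with a log2 fold change of 2.66 ± 0.51 and an adjusted p of 0.00124. KRT19 lay between 14.6 and 69.1 CPM (median 41.1) and between 1.97 and 6.48 CPM (median 3.02), with a log2 fold change of 3.52 ± 0.39 and an adjusted p of 1.35e-05. None of the 3 keratins overlapped between the groups, and serum embryo 2 had the lowest level of KRT8 and KRT18. Keratin genes have close copies in the genome, so uniquely mapped reads may understate them. GATA2 and GATA3, transcription factors of the trophectoderm, differed by 1.98 ± 0.40 and 1.88 ± 0.53 (log2 fold change ± SE, adjusted p = 0.00175 and 0.0124), and GATA3 overlapped between the groups. TFAP2C, which acts beside them, was not DE (-0.32 ± 0.22, adjusted p = 0.292). The member higher in serum was ID2, an inhibitor of helix-loop-helix factors, with a log2 fold change of -3.07 (adjusted p = 0.0108). Without serum embryo 2 it was -1.16, not DE.

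PAG2, a pregnancy-associated glycoprotein, lay between 5.41 and 119 CPM (median 11.7) in vivo and between 0 and 6.65 CPM (median 0.0896) in serum, with a log2 fold change of 4.08 ± 0.98 and an adjusted p of 0.00518, or 3.25 without in vivo embryo 2 and 4.76 without serum embryo 2. IFNT, the interferon by which the ruminant embryo signals pregnancy, lay between 4.08 and 49.1 CPM (median 14.4) and between 0 and 5.74 CPM (median 2.93), with a log2 fold change of 2.54 ± 0.65 and an adjusted p of 0.00735. Both belong to families of near-identical genes, so their uniquely mapped counts are uncertain, and both overlapped between the groups. They were 2 of the 3 tested genes on the list of trophoblast secreted proteins. Both fell to 0 counts in a serum embryo, so they were tested only through the in vivo group. With the count limit required in every embryo of both groups, 0 genes of this list were called higher in vivo. With counts thinned to the smallest total, 1 was. IFNT lost the call in 1 of 25 alternatives. PAG2 was DE in males alone (adjusted p = 0.00407) and not in females alone (adjusted p = 0.429).

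In the inner cell mass list, 1 of 12 tested genes was DE, and the median log2 fold change was -0.06. This gene was SOX2, a pluripotency factor, which lay between 5.97 and 14.4 CPM (median 7.77) in vivo and between 5.56 and 49.5 CPM (median 15.8) in serum, with a log2 fold change of -1.25 ± 0.40 and an adjusted p of 0.0271. It was no longer DE without serum embryo 3 (-0.89, adjusted p = 0.0782), and 2 genes of the list were higher in serum without in vivo embryo 1 or 9 or serum embryo 1, 2 or 4. POU5F1 lay between 183 and 246 CPM (median 209.7) in vivo and between 28.0 and 199 CPM (median 150.2) in serum, with a log2 fold change of 0.55 ± 0.25 and an adjusted p of 0.0979, and was not DE. Of 11 tested hypoblast genes, 4 were higher in vivo and none was higher in serum, with a median of 0.62. PDGFRA, the receptor that marks primitive endoderm, lay between 319.6 and 574 CPM (median 469.6) and between 20.9 and 204 CPM (median 79.6), with a log2 fold change of 2.04 ± 0.38 and an adjusted p of 0.00101. FN1, fibronectin of the extracellular matrix, lay between 4356 and 6852 CPM (median 5439) and between 7.12 and 2720.4 CPM (median 1531), with a log2 fold change of 1.98 ± 0.57 and an adjusted p of 0.0143. LRP2, an endocytic receptor also found on apical membranes, and DAB2, its adaptor, differed by 1.39 and 1.12 on the log2 scale. DAB2 came under the 2-fold limit without serum embryo 2 (0.92) or 5 (0.97). GATA6, a hypoblast transcription factor, had a log2 fold change of -0.16 ± 0.30 (adjusted p = 0.709).

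Genes of epithelial structure were higher in vivo in several lists. Of 22 tested junction genes 7 were higher in vivo and none was higher in serum, with a median log2 fold change of 0.94, and the same numbers were 5 of 10 with a median of 0.95 for apical membrane and microvillus genes. EPCAM, an epithelial adhesion molecule, lay between 321 and 618 CPM (median 392) in vivo and between 39.6 and 187 CPM (median 96.2) in serum, with a log2 fold change of 2.04 ± 0.30 and an adjusted p of 0.000158. The tight junction proteins OCLN and MARVELD2 (tricellulin) differed by 1.39 and 2.49, and JUP, plakoglobin of desmosomes and adherens junctions, by 1.38 on the log2 scale, each without overlap. RAB25, a GTPase of apical recycling, lay between 31.4 and 108 CPM (median 73.7) in vivo and between 0 and 20.8 CPM (median 5.74) in serum, with a log2 fold change of 3.30 ± 0.54 and an adjusted p of 0.000383. PLS1, which bundles actin in microvilli, and SLC9A3R1, a scaffold under the apical membrane, differed by 3.67 and 1.89, with overlap, and PLS1 was at 4.69 without serum embryo 8. With 15 counts in every embryo of both groups, 5 junction genes and 2 apical genes were called higher in vivo. Without in vivo embryo 9, 1 junction gene was higher in serum.

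The membrane protease list held 7 genes higher in vivo among 15 tested. Beside PRSS8 and DPEP1 they included ST14 (matriptase), which activates prostasin, at between 8.62 and 22.9 CPM (median 12.8) in vivo and between 0 and 5.92 CPM (median 1.01) in serum, with a log2 fold change of 2.96 ± 0.64 and an adjusted p of 0.00267. SPINT2, an inhibitor of matriptase and prostasin, was also higher in vivo (1.32 ± 0.29, adjusted p = 0.00276). Among annexins and S100 proteins, which bind calcium and membranes, 10 of 17 were higher in vivo, for example S100A16 (2.04) and ANXA11 (1.41), and 2 were higher in serum, S100A2 (-3.06) and S100B (-2.46). Leaving out serum embryo 2 raised the 2 to 4. With 15 counts in every embryo of both groups, 2 membrane protease genes and 5 annexin and S100 genes were called higher in vivo, and no annexin or S100 gene higher in serum. Of 31 actin cytoskeleton genes 12 were higher in vivo and none was higher in serum, including TAGLN2 (1.74), PDLIM1 (1.66) and TLN2 (2.28). Without serum embryo 2, and also without serum embryo 7, 7 genes of this list were higher in vivo, and without serum embryo 8, 1 was higher in serum. For fluid transport, 1 of 5 tested genes of the sodium pump and the water channels was DE. It was AQP3, a channel for water and glycerol, which lay between 170.4 and 416 CPM (median 223) in vivo and between 218 and 939 CPM (median 429) in serum, with a log2 fold change of -1.01 ± 0.24 and an adjusted p of 0.00537, and its fold change came under 2 without in vivo embryo 8 or 9 or serum embryo 3 or 5 (lowest -0.83 on the log2 scale, without serum embryo 5). Without serum embryo 1 or 7, 2 genes of this list were higher in serum.

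**Figure D2:**
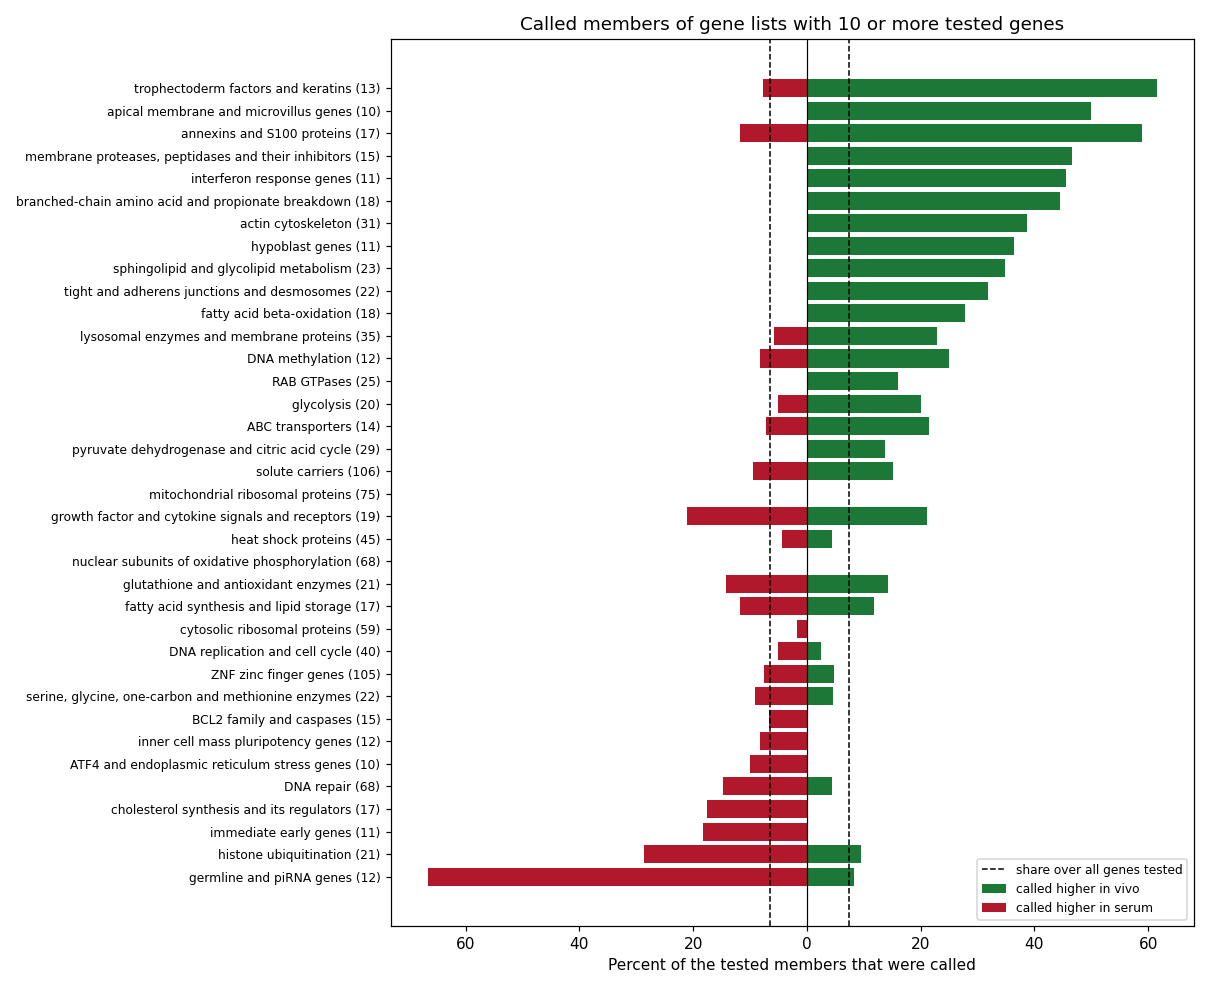
Share of the tested members of the gene lists shown (number tested in brackets) that were DE and higher in vivo (green, right) or higher in serum (red, left), in percent; dashed lines mark the shares over all 7339 genes. Trophectoderm genes, annexins and S100 proteins, apical genes and membrane proteases reach furthest to the right, and germline genes reach furthest to the left.

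Lysosomal and lipid genes differed by function. Of 35 lysosomal genes 8 were higher in vivo and 2 higher in serum, the latter 1 without in vivo embryo 2, 3, 8 or 9 or serum embryo 2 or 5. With 15 counts in every embryo of both groups, 4 were called higher in vivo. GM2A, the activator protein for ganglioside breakdown, lay between 594 and 899 CPM (median 722) in vivo and between 194 and 318 CPM (median 269) in serum, with a log2 fold change of 1.49 ± 0.14 and an adjusted p of 2.10e-06. PSAP, the precursor of the saposins, lay between 1663 and 2353 CPM (median 1896) and between 563 and 1133 CPM (median 931), with a log2 fold change of 1.16 ± 0.14 and an adjusted p of 5.30e-05. Both are also among the 8 of 23 sphingolipid genes that were higher in vivo, with SMPD1, the acid sphingomyelinase (1.20), and ORMDL2, a regulator of sphingolipid synthesis (2.06). Of 18 genes of fatty acid beta-oxidation 5 were higher in vivo and none was higher in serum. ETFA, which passes electrons from acyl-CoA dehydrogenases, lay between 123 and 231 CPM (median 192) and between 42.3 and 91.6 CPM (median 74.6), with a log2 fold change of 1.40 ± 0.17 and an adjusted p of 4.74e-05. ACADS, the short-chain dehydrogenase, and HADHA, of the trifunctional protein, differed by 3.61 and 1.22, and ACADS was at 4.23 without serum embryo 4.

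PLIN2, the coat protein of lipid droplets, was higher in serum, at between 252 and 734 CPM (median 571) against between 149 and 319 CPM (median 243) in vivo, with a log2 fold change of -1.14 ± 0.22 and an adjusted p of 0.00123. FABP5, a fatty acid carrier, was also higher in serum (-2.73, or -1.52 without serum embryo 2), while the elongase ELOVL1 (1.14) and the desaturase family member FADS3 (1.79) were higher in vivo. For cholesterol synthesis 3 of 17 genes were DE, all higher in serum. FDFT1, squalene synthase, lay between 26.8 and 54.7 CPM (median 47.0) in vivo and between 85.0 and 161 CPM (median 101) in serum, with a log2 fold change of -1.30 ± 0.18 and an adjusted p of 0.000145. SC4MOL, a sterol oxidase, differed by -1.10. SC4MOL lost the call without in vivo embryo 3 or serum embryo 5, and without in vivo embryo 3 only FDFT1 of the list was DE. HMGCS1 (-0.68 ± 0.32, adjusted p = 0.112) and IDI1 (0.18 ± 0.33, adjusted p = 0.697), which act early in the pathway, were not DE.

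Mitochondrial breakdown of branched-chain amino acids and propionate held 8 of 18 tested genes higher in vivo and none higher in serum, with a median log2 fold change of 0.79. BCKDHA, of the branched-chain keto acid dehydrogenase, lay between 56.4 and 106 CPM (median 79.5) in vivo and between 17.2 and 41.0 CPM (median 30.9) in serum, with a log2 fold change of 1.41 ± 0.20 and an adjusted p of 0.000145. PCCB and MCCC1, of the propionyl-CoA and methylcrotonyl-CoA carboxylases, differed by 1.17 and 1.21, without overlap. For pyruvate entry and the citric acid cycle 4 of 29 were higher in vivo, among them SUCLG2 (1.80), a subunit of succinyl-CoA ligase, and MPC1 (1.33), of the mitochondrial pyruvate carrier. These were 2 genes without serum embryo 2. Of 68 nuclear subunits of oxidative phosphorylation none was DE, and their median log2 fold change was 0.26. This count was also 0 with edgeR's exact test and DESeq2, while 28 of the subunits had an unadjusted p under 0.05. It was 4, all higher in vivo, without serum embryo 1, 2 without serum embryo 4 and 1 without serum embryo 6 or 8. No mitochondrial ribosomal protein of 75 was DE with these 3 tests, with 26 at an unadjusted p under 0.05, and 1 cytosolic ribosomal protein of 59 was DE. The cytosolic count ranged from 0, as without serum embryo 2, to 2 on leaving out 1 embryo.

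Of 22 enzymes of serine, glycine, one-carbon and methionine metabolism, 2 (9.09%) were higher in serum, against 6.43% over all genes, and 1 was higher in vivo, with a median log2 fold change of -0.03. SHMT2, the mitochondrial serine hydroxymethyltransferase, lay between 24.1 and 91.8 CPM (median 43.5) in vivo and between 109 and 239 CPM (median 199) in serum, with a log2 fold change of -2.01 ± 0.26 and an adjusted p of 5.61e-05, without overlap. GLDC, which splits glycine, lay between 10.6 and 72.3 CPM (median 29.5) and between 69.6 and 359 CPM (median 125), with a log2 fold change of -2.24 ± 0.38 and an adjusted p of 0.000563. PHGDH, the entry enzyme of serine synthesis, was not DE, at -0.43 ± 0.74 (adjusted p = 0.687). It was at 1.03 without serum embryo 8. GCAT, which splits a breakdown product of threonine into glycine and acetyl-CoA, was the gene higher in vivo, at 1.72 ± 0.45 (adjusted p = 0.00856), and without serum embryo 8 the list held 2 such genes. Of 21 antioxidant genes 3 were DE in each direction. PRDX6 (1.73), PRDX2 (1.08) and SOD2 (1.13) were higher in vivo, and SOD1 (-1.84), GPX2 (-3.57) and GSTM3 were higher in serum. PRDX2 came under the 2-fold limit without serum embryo 2 (0.95), 5 or 7, and SOD2 without serum embryo 1. GPX2 was at -4.17 without in vivo embryo 6.

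Among 106 solute carriers 16 were higher in vivo and 10 higher in serum. With 15 counts in every embryo of both groups, these were 5 and 5. The list was matched by symbol and holds SLC7A6OS, which is no carrier. SLC1A1, a glutamate and aspartate transporter, lay between 688 and 1172 CPM (median 890.2) in vivo and between 262 and 536 CPM (median 371) in serum, with a log2 fold change of 1.27 ± 0.16 and an adjusted p of 5.60e-05. SLC1A5, a glutamine transporter, lay between 12.9 and 30.9 CPM (median 22.6) and between 50.4 and 91.6 CPM (median 62.7), with a log2 fold change of -1.61 ± 0.20 and an adjusted p of 5.30e-05. Neither gene overlapped between the groups. SLC29A1, the equilibrative nucleoside transporter, was higher in vivo by 1.78, like SLC28A3, whereas SLC28A2 was higher in serum (-4.48). ABCB1, the multidrug efflux pump, was higher in serum (-1.81 ± 0.32, adjusted p = 0.000632), while ABCA1, which exports cholesterol, was higher in vivo (1.77 ± 0.50, adjusted p = 0.0131).

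Among the lists with 10 or more tested genes, germline genes had the largest share (66.7%) of genes higher in serum. Of 12 tested, 8 were higher in serum and 1 was higher in vivo, with a median log2 fold change of -1.77. TEX12, of the meiotic synaptonemal complex, lay between 41.6 and 86.8 CPM (median 73.5) in vivo and between 182 and 343 CPM (median 239) in serum, with a log2 fold change of -1.79 ± 0.17 and an adjusted p of 2.74e-06. GTSF1, a cofactor of piRNA-guided silencing, lay between 37.3 and 99.1 CPM (median 52.5) and between 145 and 290.2 CPM (median 169), with a log2 fold change of -1.75 ± 0.22 and an adjusted p of 5.35e-05. SYCP3, of the meiotic chromosome axis, lay between 60.9 and 111 CPM (median 99.3) and between 167 and 742 CPM (median 322), with a log2 fold change of -2.08 ± 0.31 and an adjusted p of 0.000204. All 3 were without overlap. CT55, a cancer-testis antigen, differed by -4.64. TDRD1, a Tudor protein of the piRNA pathway, was the exception, higher in vivo (2.34 ± 0.63, adjusted p = 0.00981). With counts thinned to the smallest total, 5 genes were higher in serum, and with 15 counts in every embryo of both groups 5 were as well.

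The de novo DNA methyltransferases were lower in serum embryos. DNMT3A lay between 343 and 699 CPM (median 417) in vivo and between 2.85 and 136 CPM (median 89.2) in serum, with a log2 fold change of 2.52 ± 0.41 and an adjusted p of 0.000394. DNMT3B lay between 21.5 and 67.6 CPM (median 43.5) and between 0.307 and 17.3 CPM (median 8.11), with a log2 fold change of 2.44 ± 0.49 and an adjusted p of 0.00176. TDG, a glycosylase of active demethylation, was also higher in vivo (2.23), and UHRF1, which guides maintenance methylation, was higher in serum (-1.06, and under the 2-fold limit without serum embryo 2, at -0.96, or in vivo embryo 1 or 4). These were the 4 DE genes of 12. DNMT3A, DNMT3B and TDG fell to 12, 1 and 0 counts in a serum embryo, so they were tested only through the in vivo group. With 15 counts in every embryo of both groups, 0 genes of this list were called higher in vivo and 1 higher in serum. In the histone ubiquitination list 6 of 21 genes were higher in serum and 2 higher in vivo. TRIP12, a ubiquitin ligase, lay between 177 and 299.9 CPM (median 242) and between 329.7 and 789 CPM (median 530.3), with a log2 fold change of -1.21 ± 0.18 and an adjusted p of 0.000194. CUL4B (-1.67), a cullin, and USP7 (-1.27), a deubiquitinase, were higher in serum, and KDM2B (1.77), of a variant polycomb complex, was higher in vivo. Without serum embryo 2 the 6 became 3, and the 2 became 1 without any 1 of 12 embryos. Of 68 DNA repair genes 10 were higher in serum and 3 in vivo, and the 10 became 4 without serum embryo 2 and 5 without in vivo embryo 2. The 3 became 6 without serum embryo 4 and 5 without serum embryo 6 or 8, and 0 with 15 counts in every embryo of both groups. The genes higher in serum included TRIP13 (-1.22), WRN (-1.18), a helicase, and ALKBH1 (-1.24). Without serum embryo 2, ALKBH1 was at -0.97 and USP7 at -0.96, under the 2-fold limit.

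In signalling, 4 of 19 growth factor and receptor genes were DE in each direction. With the count limit required in every embryo of both groups, 3 were called higher in vivo and 1 higher in serum. KIT, the stem cell factor receptor, lay between 437 and 899 CPM (median 629) in vivo and between 3.68 and 151 CPM (median 53.4) in serum, with a log2 fold change of 3.29 ± 0.55 and an adjusted p of 0.000491. KITLG, its ligand, was higher in serum, at between 4.51 and 57.2 CPM (median 11.3) against between 1.09 and 9.33 CPM (median 3.91), with a log2 fold change of -2.05 ± 0.52 and an adjusted p of 0.0075. The receptors ERBB3 (2.19) and IL6ST (1.43) were higher in vivo with PDGFRA, and FLT1 (-3.45), CSF1R (-2.08) and the ligand BMP4 (-1.83) were higher in serum. KIT and ERBB3 were tested only through the in vivo group, and FLT1, CSF1R and KITLG only through the serum group. Of 11 interferon response genes 5 were higher in vivo, led by IFITM3 (2.02) and IFI35 (2.42), and these were 3 without in vivo embryo 3, 7 or 8 or serum embryo 1. They were 2 with the count limit required in every embryo of both groups. IFI35 and IRF1, another of the 5, fell to 1 and 0 counts in a serum embryo, so they were tested only through the in vivo group.

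Of 40 replication and cell cycle genes 3 were DE. CCND2, a G1 cyclin, lay between 138 and 408 CPM (median 223) in vivo and between 0 and 71.6 CPM (median 21.4) in serum, with a log2 fold change of 3.32 ± 0.71 and an adjusted p of 0.00248. AURKA, a mitotic kinase (-1.09), and CDC25A, a cell cycle phosphatase (-1.18), were higher in serum, AURKA under the 2-fold limit without serum embryo 5 or 7. Without serum embryo 8, 2 genes of this list were higher in vivo. Among stress genes, DDIT4 was the 1 of 10 genes of the ATF4 and endoplasmic reticulum list that was DE, higher in serum (-1.63 ± 0.26, adjusted p = 0.000326). BAD, which promotes apoptosis, was the 1 of 15 BCL2 family and caspase genes (-1.28 ± 0.22, adjusted p = 0.000596). The ATF4 list also held 1 gene higher in vivo without serum embryo 4, 6 or 8 and 2 higher in serum without serum embryo 7, and the BCL2 and caspase list 1 higher in vivo without serum embryo 5.

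**Figure D3:**
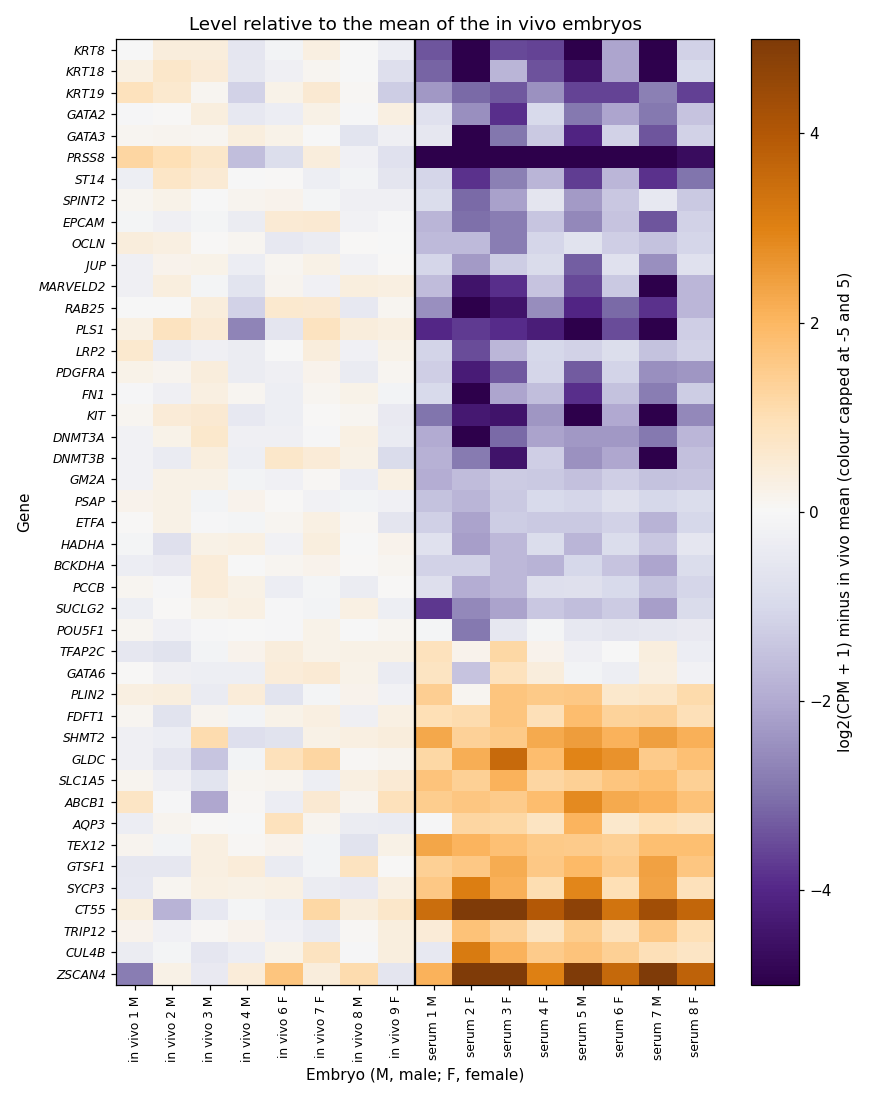
Level of named genes (rows) in each of the 16 embryos (columns), as log2(CPM + 1) minus the mean of the in vivo embryos; purple is lower, orange higher, and the line parts the groups. Serum embryo 2 has the lowest POU5F1, KRT8 and FN1 of its group, and the other serum embryos differ from the in vivo mean in the same direction for most genes, with unequal size. Most of these genes were chosen because they were DE between the same embryos, so their shared direction was largely set beforehand.

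Markers of other cells that may have been present were summed per embryo. The sum of 16 cumulus and granulosa markers was 18.2 to 53.4 CPM in vivo and 10.4 to 168 CPM in serum, with medians of 41.7 and 41.0 CPM. Among single cumulus and granulosa markers, DCN reached 112 CPM and HAS2 29.7 CPM in serum embryo 2, and LUM 91.7 CPM in serum embryo 4. STAR reached 35.6 CPM in an in vivo embryo. Oviduct and uterus markers (6 genes) summed to 1.13 to 10.3 and 2.46 to 23.3 CPM, blood and immune markers (8 genes) to 5.43 to 56.5 and 9.68 to 16.4 CPM, and sperm markers (5 genes) to at most 1.68 and 14.2 CPM. Of all these markers only CYP19A1 reached the limit for testing (0.70 ± 0.55, adjusted p = 0.355). The part of these cells in the results was not tested.

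Serum embryos varied more than in vivo embryos. The standard deviation of log2(CPM + 1) was larger in serum for 6070 of the 7339 genes (82.7%), with medians of 0.60 in serum, 0.37 in vivo and 0.45 in serum-free embryos. Without serum embryo 2 it was larger in serum for 75.2% of the genes. For KRT8 it was 2.30 against 0.36, and for GM2A 0.22 against 0.25 in vivo. Each embryo was then set against the genes that were DE without it, at the midpoint between the group means. In vivo embryos lay on the serum side for 8.05% to 16.2% of the genes (median 11.1%). Serum embryos did so for 51.3% to 90.8% (median 75.8%). The highest shares were 90.8%, 88.9% and 88.8% in serum embryos 7, 5 and 3, and the lowest were 51.3%, 56.5% and 57.5% in serum embryos 8, 4 and 1. The 2 groups did not overlap, and both sexes occurred at either end of the serum group.

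**Figure D4:**
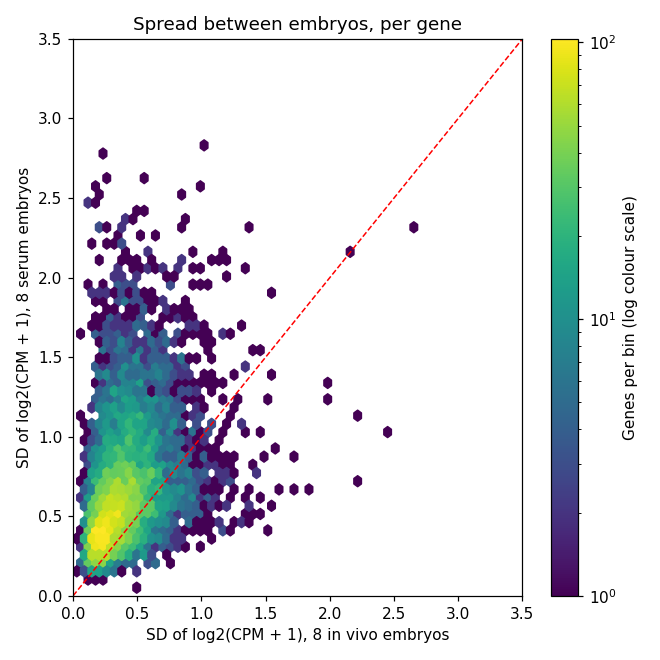
Standard deviation of log2(CPM + 1) per gene over the 8 in vivo embryos (horizontal) and the 8 serum embryos (vertical), with the number of genes per bin in colour; the dashed line marks equal spread. Of 7339 genes, 82.7% lie above the line.

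**Figure D5:**
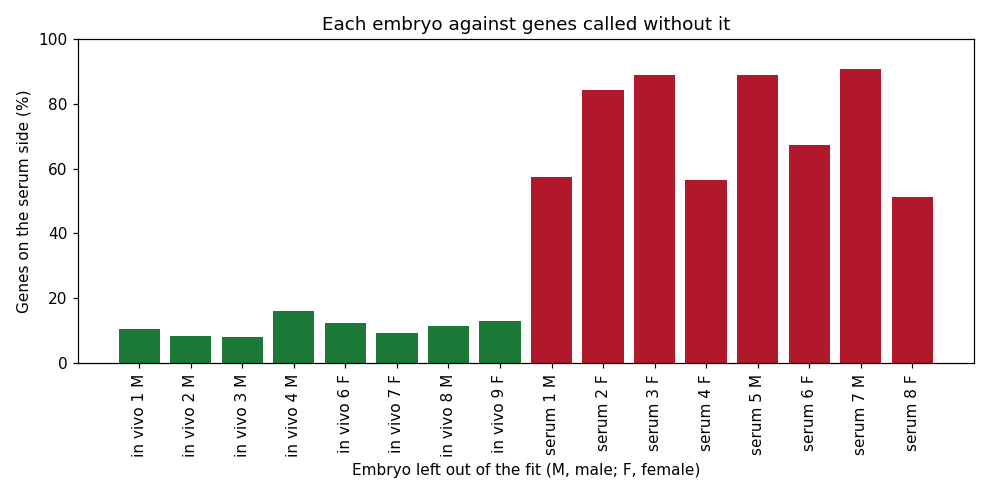
Share of the genes DE without an embryo for which that embryo lay on the serum side of the midpoint between the group means, in percent, for each in vivo (green) and serum (red) embryo. In vivo embryos reach at most 16.2% and serum embryos at least 51.3%.

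Male and female embryos were also compared separately, 5 in vivo with 3 serum males and 3 in vivo with 5 serum females. PRSS8 differed by 8.79 in males and 6.81 in females on the log2 scale, TEX12 by -1.95 and -1.67, GM2A by 1.65 and 1.41, and CT55 by -4.81 and -4.26, with adjusted p-values from 0.000501 to 0.0493. KRT8 differed by 4.60 in males (adjusted p = 0.00215) and by 2.49 in females (adjusted p = 0.18). Of the 1011 DE genes, 656 were also DE in males alone and 29 in females alone, and of the 113 named in the text 99 and 8 were. In both sexes 1010 of the 1011 had the sign of the whole comparison. These genes were called in the same embryos, so agreement in sign was largely set beforehand. It and these counts are no separate evidence. Of the 5 genes PRSS8, DPEP1, SLC28A3, SFN and GSTM3, 5 were DE in males and 1, PRSS8, in females. The adjusted p in females was 0.101 for DPEP1, 0.074 for SLC28A3, 0.12 for SFN and 0.0755 for GSTM3. The interaction of sex and group had no adjusted p under 0.729, so these sizes were not shown to differ between the sexes.

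Serum-free embryos gave 161 DE genes (2.20% of 7314) against in vivo embryos and 640 (8.91% of 7181) against serum embryos. The comparisons share embryos, and the serum and serum-free groups differ in sex ratio, so the values are only set side by side. KRT8 had a median of 6868 CPM in serum-free embryos, a log2 fold change of 0.02 ± 0.27 (adjusted p = 0.979) against in vivo and a log2 fold change of -3.04 ± 0.71 (adjusted p = 0.0111) for serum over serum-free. PRSS8 had 19.5 CPM, a log2 fold change of -0.23 ± 0.64 (adjusted p = 0.883) and a log2 fold change of -7.96 ± 1.01 (adjusted p = 0.000397). FDFT1 had 131 CPM, with a log2 fold change of -2.06 ± 0.35 (adjusted p = 0.00197) for in vivo over serum-free and a log2 fold change of -0.78 ± 0.36 (adjusted p = 0.139) for serum over serum-free. Among germline genes, TEX12 had 173 CPM, with a log2 fold change of -1.41 ± 0.20 (adjusted p = 0.000715) and a log2 fold change of 0.38 ± 0.21 (adjusted p = 0.2). SYCP3 had 135 CPM, with a log2 fold change of -0.56 ± 0.19 (adjusted p = 0.0881) and a log2 fold change of 1.51 ± 0.32 (adjusted p = 0.00729). CT55 had 10.4 CPM, with a log2 fold change of -1.82 ± 0.49 (adjusted p = 0.0315) and a log2 fold change of 2.82 ± 0.43 (adjusted p = 0.00236). HMGCS1, not DE between in vivo and serum, was at 121 CPM in serum-free embryos, with a log2 fold change of -2.88 ± 0.59 (adjusted p = 0.00623) and a log2 fold change of -2.21 ± 0.64 (adjusted p = 0.0259).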

How the data were processed

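Single embryos were sequenced after cDNA amplification from 1 ng of RNA with an unstranded kit, so a gene and an overlapping antisense gene cannot be told apart. The authors mapped the trimmed reads to the bovine genome (UMD3.1, per the labels) and deposited raw counts of fragments mapped uniquely to exons, without normalization. All value columns were matched to embryos by name. Counts were normalized by TMM and tested with the quasi-likelihood test of edgeR 4.0.16 in R 4.3.3, in a fit of the 16 embryos, after the limit of 15 counts. Standard errors are approximate, the log2 fold change divided by the root of the test's F value. CPM levels used factors over all 24 embryos. Spread and the comparison of left-out embryos used log2 CPM with a pseudocount of 1. The tests were tested on simulated data. Alternatives were edgeR's exact test, which the study's methods name, DESeq2 1.42.0, other scalings and count limits, thinned counts, a fit over all 24 embryos, sex as a covariate, a replicate block, and leaving out each embryo.

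Named genes were given markers, genes of the study's PCR, lineage genes, the 10 DE genes with the largest difference per direction (mean of at least 10 CPM, groups apart), up to 4 DE genes per list and direction by smallest p-value, and other-cell markers with at least 15 counts. The members, lists and tests were chosen with earlier results of these data known. The 8 in vivo embryos came from 3 cows, so some of them shared a donor. Which of them did, and whether serum embryos did, is not in the labels. The tests treated each embryo as independent, so p-values measure the spread between these embryos and not between donors. The standard errors also rest on the spread between these embryos, and the floors cover counting error only. No sequence or position is given, and some listed genes are not reported here.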

Additional observations from a re-analysis of the deposited data

Results flagged for a closer look

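For each named gene the embryo at either end of its group was compared with its neighbour, as the gap on the log2(CPM + 1) scale divided by the range of the group. Gaps above Dixon's critical value were noted, which chance gives in about 1 of 20 groups of 8, and 23 of 258 groups passed. Serum embryo 2 was the outlying embryo in 10 of them. It was lowest for POU5F1 (gap 0.821 of the range), DNMT3A (0.734), SMPD1 (0.656), LRP2 (0.654), GCAT (0.630), FN1 (0.652), S100A16 (0.596) and MCCC1 (0.593), and highest for UHRF1 (0.552) and HAS2 (0.545). Its FN1 level was 7.12 CPM, against 359.8 CPM in the next embryo, and its HAS2 level was 29.7 CPM against 3.76 CPM. Serum embryo 3 was lowest for OCLN (0.534), serum embryo 7 for STAR (0.528), and serum embryo 5 had the highest total of counts (0.641).

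Among in vivo embryos, embryo 9 was lowest for SLC28A3 (0.635), PRDX6 (0.584) and ETFA (0.544). Embryo 4 was lowest for PLS1 (0.589) and highest for GSTM3 (0.646) and DCN (0.528). Embryo 3 was lowest for ABCB1 (0.572) and ORMDL2 (0.527), embryo 2 was lowest for HKDC1 (0.56), and embryo 6 was highest for AQP3 (0.574).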

How the results depend on the processing

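The main count was 1011 DE genes. With at least 15 counts required in every embryo of both groups it was 544 (288 higher in vivo and 256 in serum), of 5743 genes tested. With any gene of at least 1 count tested, 1403 of 19159 genes were DE, 656 higher in vivo and 747 in serum. Leaving out 1 embryo gave 890 to 1155 DE genes, 449 to 626 higher in vivo and 410 to 580 higher in serum, and between 79.5% and 97.3% of the 1011 were called again. The exact test called 1103 genes and DESeq2 1094. With sex as a covariate 1045 genes were DE, 930 of them among the 1011. Scaling by total counts alone moved the median of all genes by -0.06 (log2) and turned the split to 448 higher in vivo and 531 in serum.

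The replicate numbers are only codes. Over the 7 numbers found in both groups, the deviations of same-numbered embryos from their group means correlated between -0.12 and 0.08, none above 0.1, and 2 pairs shared a sex. A fit with the replicate block called 703 genes, 263 of them higher in serum. The same 14 embryos with no block, a fit added after seeing the data, gave 922. Under the block 1 DNA repair gene was higher in serum, in place of 10.

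For single genes, 3133 of the values under alternatives kept direction and call, 43 lost the call and 5 changed sign, all of genes that were not DE. A gene under the count limit of a setting was left out of the tally for that setting. The limit on every embryo of both groups thus left out PRSS8, DPEP1, SLC28A3, SFN and GSTM3, among others. Of the counts of called genes per list, 230 were classed as moved and 2038 as the same, which includes small changes. PHGDH was at 0.94 with DESeq2, 0.19 with sex as a covariate, 0.059 with the replicate block and between -0.87 and 1.03 on leaving out 1 embryo, the highest without serum embryo 8. IDI1 ranged from -0.013, without in vivo embryo 7, to 0.42. Genes near the 2-fold limit, such as AQP3 and UHRF1, lost the call most easily. A larger spread between embryos in serum held for 82.2% and 83.3% of genes with pseudocounts of 0.25 and 4 CPM, and 78.1% of genes in the median left-out serum embryo lay beyond the in vivo range.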
